A study of Mus musculus with 76 samples.

Results

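Of the 76 labelled cells of this study, 9 have values in the table deposited before a quality filter and none in the table deposited after it. These 9 cells, called failed here, are compared with the 62 labelled cells that are in both tables and carry no mark of contamination, called kept. The remaining 5 cells, all WT, were kept by the filter but are marked as contaminated, and they enter no main comparison. Membership was read from the column names of both tables. For the 67 cells in both tables the values were identical, so the filter removed whole cells and changed no value.

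All cells were neurons in the dorsal CA1 pyramidal layer of postnatal day 4 mouse pups, patched in acute slices for electrical recording. Each cell's content was then drawn into the pipette and made into its own Nextera XT library (Patch-seq). Every pup carried Nkx2.1 Cre and the Ai14 tdTomato reporter, so the red cells picked descended from Nkx2.1-expressing precursors of the medial ganglionic eminence (MGE). WT pups carried GPHNWT, and Mut pups carried GPHNS268/270A, in which alanine replaces serines 268 and 270 of gephyrin. A single WT male cell failed, with 4 cells each of Mut females and Mut males, and the kept cells came from WT females (9) and males (19) and from Mut females (19) and males (15). The labels name no animal, litter, slice or batch, so cells were not treated as replicates. Values per cell are therefore described by their median and range, with no p-value. Cell numbers follow the order of the labels within a group.

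The MGE is the embryonic source of most parvalbumin and somatostatin interneurons of the hippocampus. Its descendants are known by the transcription factor Lhx6 and by Gad1 and Gad2, the enzymes that make GABA. Gephyrin, encoded by Gphn, clusters the receptors for GABA and glycine beneath inhibitory terminals. In single-cell libraries a filter usually looks at the depth of the library, the number of genes detected and the share of mitochondrial transcripts, because little captured RNA or a leaking cell changes them. The criterion used by the authors is not given in the sources used here and may be one of the measures below, so a difference in these measures may be what chose the cells.

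Most failed cells were Mut. Of 42 Mut cells 8 failed, 19.05% (exact binomial 95% interval 8.60 to 34.1), and of 34 WT cells 1 failed, 2.94% (0.0744 to 15.3). The intervals overlap and cover counting error only, since cells of 1 pup are not independent. The share was 17.4% in Mut females (4 of 23), 21.1% in Mut males (4 of 19) and 4.17% in WT males (1 of 24). None of the 10 WT female cells failed (exact binomial 95% interval 0 to 30.8%), and 3 counts of the total, the limit set for a count of 0, come to 30.0%. Because 8 of the 9 failed cells were Mut, each measure is given again for the Mut cells alone.

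Failed cells were shallow. The WT male cell held 2633230 estimated counts. The Mut female cells 1 to 4 held 899625, 2389162, 2102311 and 6253603 counts, and the Mut male cells 1 to 4 held 1090295, 983160, 2527119 and 1879702. Kept cells held 2946456 to 12070780 counts (median 6353179), so 8 of the 9 failed cells lay below every kept cell and the exception was Mut female cell 4. The failed median was 0.331 of the kept median, and 0.320 among Mut cells alone (1991006.5 against 6227716 counts). No other measure below separated as many failed cells from the kept range.

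Mitochondrial messenger RNAs, which code for subunits of the respiratory chain, set 1 failed cell apart. They made up 16.4% of the counts of Mut female cell 4, above the kept range of 0.0660% to 5.55% (median 1.22%). In the other 8 failed cells the share was 0.191% to 1.91%, inside the kept range. Mut female cell 4 held 37948 CPM (counts scaled to a cell total of 1000000) of mt-Co3, a subunit of cytochrome oxidase, and 35049 CPM of mt-Cytb, the cytochrome of complex III. The highest kept cells reached 16820 and 6919 CPM of these transcripts. The failed median of the mitochondrial share was 1.06%, and among Mut cells it was 1.12% against 1.22% in kept cells. Low depth in 8 cells and a high mitochondrial share in the other one thus described all 9 failed cells, with no cell carrying both.

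**Figure D1:**
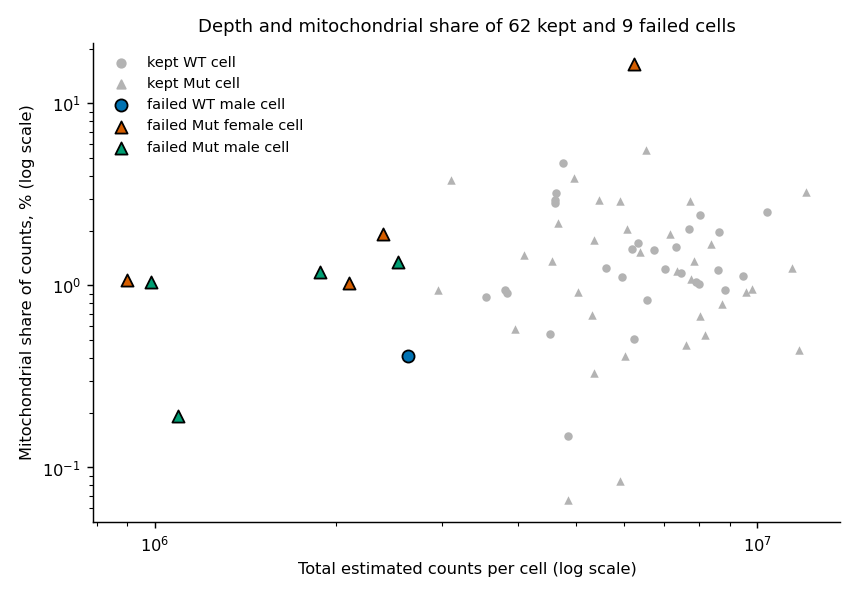
Total estimated counts per cell (x axis, log scale) against the mitochondrial share of counts in percent (y axis, log scale), with kept cells in grey and failed cells coloured by genotype and sex. Of the failed cells 8 lie left of all kept cells, and Mut female cell 4 lies at kept depth with 16.4% mitochondrial counts.

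The number of detected genes depended on the minimum used. At 1 count or more, the failed cells had 8461 to 11714 genes (median 10350) and the kept cells 9057 to 13663 (median 11244.5). The WT male cell (8461) and Mut female cell 4 (8873) were the only failed cells below all kept cells. At 10 counts or more, the failed cells had 2346 to 5546 genes (median 3851) and the kept cells 3173 to 10006 (median 5956.5). All 9 failed cells were below that kept median, 4 of them below every kept cell, and the difference was in the same direction in WT males, Mut females and Mut males. Among Mut cells the medians at 10 counts were 3947 in failed and 5703 in kept cells.

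Thinning every cell to 500000 counts at random removed the difference in depth. Genes at 1 count or more then had medians of 7627 in failed and 6609 in kept cells. They were above the kept median in 7 of 9 failed cells, while the WT male cell had 5010 and Mut female cell 4 had 3609, fewer than every kept cell. In contrast, genes at 10 counts or more stayed fewer, with medians of 1955 and 3636. All 9 failed cells stayed below the kept median at 10 counts. As deposited, without thinning, genes with 1 to 9 counts made up 52.7% to 74.6% of the detected genes of failed cells and 25.0% to 67.9% in kept cells (medians 62.9% and 48.4%). Whether the genes at a few counts come from the patched cell was not tested.

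**Figure D2:**
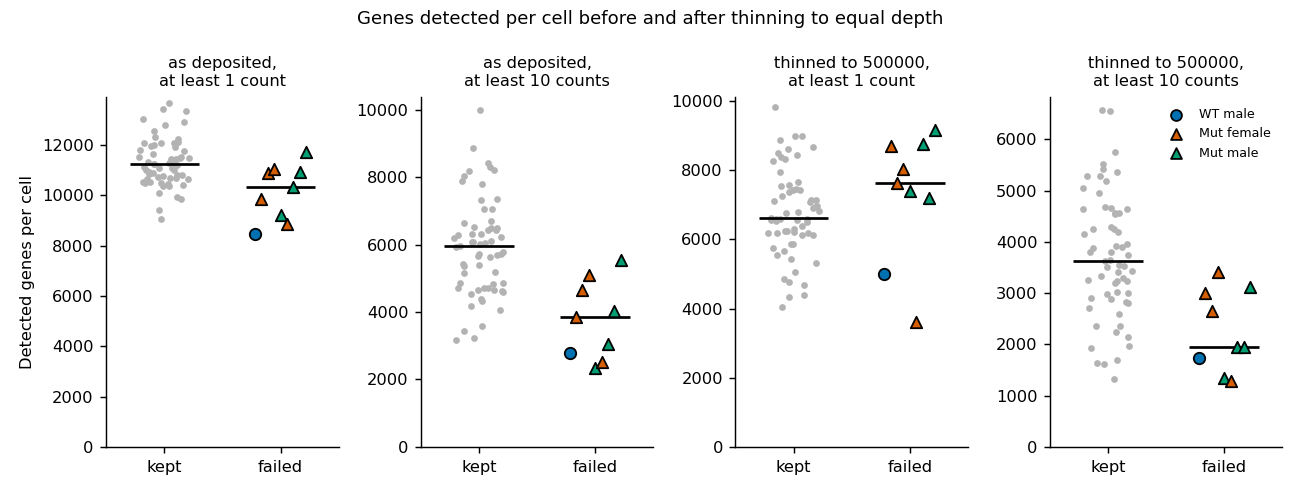
Detected genes per cell (y axis) in 62 kept cells (grey) and 9 failed cells (coloured), as deposited and after thinning to 500000 counts, at a minimum of 1 or 10 counts, with black lines at the medians. The order of the medians turns between minima after thinning: 7627 failed against 6609 kept at 1 count, and 1955 against 3636 at 10 counts.

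A few genes took a large part of the counts of failed cells. The 100 most counted genes of a cell held 29.7% to 67.6% of its counts in failed cells (median 41.1%) and 20.4% to 41.7% in kept cells (median 25.2%). All 9 failed cells were above the kept median and 4 were above every kept cell. Among Mut cells the medians were 40.7% and 23.4%, and 5 of 8 failed cells were above every kept Mut cell. Protein-coding genes of the nuclear genome held a median of 86.2% of counts in failed and 94.7% in kept cells, with 5 failed cells below every kept cell.

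Gm19220, a processed pseudogene (chromosome 12, 40893485 to 40894287 on the plus strand of GRCm38), was the first or second most counted gene in 8 of the 9 failed cells. A processed pseudogene is a genomic copy of a messenger RNA without introns. Its share of counts was 10.5% in the WT male cell, 47.7%, 14.1%, 9.08% and 0.723% in Mut female cells 1 to 4, and 9.15%, 11.6%, 5.75% and 13.98% in Mut male cells 1 to 4. Kept cells ranged from 0.373% to 11.6% with a median of 2.28%. Of the failed cells 8 were above the kept median, a position that 5.67% of genes of mean 10 CPM or more reached with at least 8 cells, and 3 were above every kept cell, while Mut female cell 4 was below the kept median. Among Mut cells the medians were 10.4% in failed and 1.87% in kept cells, and 6 of 8 failed cells were above every kept Mut cell.

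The counts of Gm19220, unlike its share, were similar in both groups. Failed cells held 45187.9 to 428913 counts of it (median 190793) and kept cells 30431.8 to 725515 (median 153454.5). Among the 62 kept cells its share fell as depth rose, with a Spearman correlation of -0.709 across cells, a description in which each share has the depth as its denominator. The 9 kept cells of lowest depth, 2946456 to 4563662 counts, had a median Gm19220 share of 8.34%, close to the failed median of 10.5%. Lars2, the mitochondrial leucyl-tRNA synthetase, was the other row of this size. It held 0.846% to 17.1% of counts in failed cells (median 2.42%) and 0.168% to 20.3% in kept cells (median 1.63%), and no failed cell left the kept range. Among Mut cells the medians were 2.14% in failed and 1.20% in kept cells. There, 2 of 8 failed cells were above every kept Mut cell, of which the highest held 4.75%.

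The Gm19220 transcript carries an unbroken run of 33 cytosines at bases 237 to 269 of its 803 bases. The stretch is shown because Zrsr1, the gene that followed Gm19220 most closely across cells, holds such a run too. Bases 197 to 309 read as follows 5′ to 3′ in the GENCODE M21 annotation of GRCm38, with the run in capitals.
Gm19220: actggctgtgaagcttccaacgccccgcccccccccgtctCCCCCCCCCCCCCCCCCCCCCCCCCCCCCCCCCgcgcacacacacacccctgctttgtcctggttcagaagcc

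Of 141767 annotated transcripts, 4 hold a run of 31 or more C or of 31 or more G, and the next longest runs were 27 C and 25 G. They belong to Gm19220, to Zrsr1 (38 C, chromosome 11, 22972005 to 22976496, plus strand), to Gm26822 (34 C) and to a transcript of Grip2 (33 G, chromosome 6, 91761509 to 91827250, minus strand). Zrsr1 is related to a splicing factor of the U2 auxiliary factor family, and Grip2 codes for a protein that binds glutamate receptors. The search for such runs, and the choice of Zrsr1 and Grip2, followed after the high Gm19220 values had been seen. Gm26822 was not analysed here.

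Zrsr1 followed Gm19220 more closely than any other gene did. Across the 62 kept cells, its Spearman correlation with Gm19220 was 0.969, ranked 1 among genes of mean 10 CPM or more, whose median correlation was 0.003. The next was Slc6a20b with 0.912, which has no run of this length, and Grip2 had 0.833. Both values are shares of the same libraries and both rose in shallow cells, so the number is a description. Zrsr1 stood at 0.516% to 1.47% of the Gm19220 counts, not scaled by length, in all 62 kept cells. In 8 failed cells it stood at 0.642% to 1.48%, and in Mut female cell 4, where Gm19220 was low, at 11.03%. In CPM, Zrsr1 ranged from 797 to 4248 in failed cells (median 906) and from 27.2 to 899 in kept cells (median 198). Grip2 ranged from 47.8 to 1975 CPM in failed cells (median 477) and from 13.3 to 837 CPM in kept cells (median 105). Whether reads made of a single base were assigned to these runs was not tested, and the sequencer is not given in the sources used here.

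**Figure D3:**
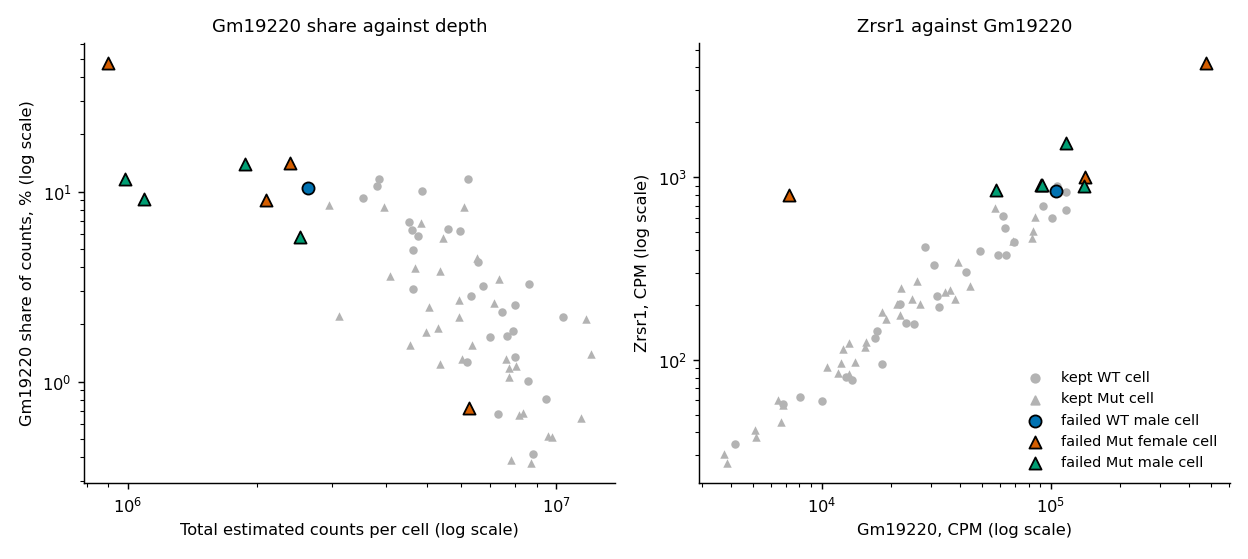
Left, the Gm19220 share of counts in percent against total counts per cell. Right, Zrsr1 against Gm19220 in CPM, all axes on log scales, with 62 kept cells in grey and 9 failed cells coloured. Of the failed cells 8 lie at lower depth than every kept cell, with Gm19220 shares above the kept median. In 3 of them the share is above every kept cell. Mut female cell 4 stands apart in the right panel with 7226 CPM of Gm19220 and 797 CPM of Zrsr1.

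Other rows shared this behaviour. Among genes of mean 10 CPM or more, 842 (9.06%) had a higher median count in failed than in kept cells although the libraries held fewer counts. Neu1, the lysosomal sialidase, and Tmem170, a membrane protein gene, were both above the kept median in 9 of 9 failed cells, as were 0.753% of genes of mean 10 CPM or more. Both were chosen after their values were seen. Neu1 had a failed median of 955 CPM against 177 in kept cells and reached 10608 CPM in Mut female cell 1 and 4412 CPM in Mut female cell 3. In those cells Tmem170 stood at 11475 and 4157 CPM, against a kept median of 148 CPM. Their Spearman correlations across the kept cells were 0.582 and 0.541 with Gm19220, and -0.446 and -0.48 with total counts.

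The general neuronal program was present in every failed cell. Of 24 pan-neuronal genes, the failed cells carried 15 to 22 at 10 CPM or more (median 19) and the kept cells 13 to 24 (median 21). Stmn2 and Stmn3, regulators of microtubules in growing axons, Rtn1, an endoplasmic reticulum protein of neurons, and Tubb3, the neuronal tubulin, were at 10 CPM or more in 9 of 9 failed and 62 of 62 kept cells. Stmn2 had a median of 1158 CPM in failed and 1952 CPM in kept cells, and Stmn3 1537 and 1338. Among Mut cells the medians of carried genes were 19.5 and 20. The level of 10 CPM corresponds to 9.0 to 62.5 counts in failed cells and to 29.5 to 120.7 counts in kept cells.

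With a higher minimum the failed cells stood lower. At 50 CPM they carried 10 to 17 of the pan-neuronal genes (median 14) and the kept cells 10 to 23 (median 19), with all 9 failed cells below the kept median. At 1 CPM the medians turned to 1 gene more in failed cells. Snap25, a protein of the synaptic vesicle fusion machinery, showed the loss of level. Its failed median was 53.9 CPM against 691 CPM in kept cells, 8 of 9 failed cells were below the kept median (11.6% of genes of mean 10 CPM or more had at least 8 below), and 29 of 62 kept cells were above the highest failed cell (715 CPM, Mut male cell 3). Snap25 was chosen after its values were seen.

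Genes of interneuron identity at 10 CPM or more were fewer in the median failed cell, as were genes of any kind (medians 3080 in failed and 4030.5 in kept cells). Of 20 genes, 14 MGE lineage transcription factors and 6 genes of GABA synthesis and transport, the failed cells carried 4 to 13 at 10 CPM or more (median 7) and the kept cells 4 to 18 (median 11). At 50 CPM the medians were 4 and 10, and all 9 failed cells were below the kept median. At 1 CPM they turned to 2 genes more in failed cells. Among Mut cells the medians at 10 CPM were 8 and 12. A smaller share of failed than of kept cells carried 11 of the 14 transcription factors and 5 of the 6 GABA genes, as for 76.6% of all genes at 10 CPM in at least 1 cell. The 9 kept cells of lowest depth had a median of 11 genes at 10 CPM, as many as all kept cells. They were still deeper than 8 of the 9 failed cells, so they do not match the failed cells in depth.

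Gad1 was low in every failed cell. It stood at 38.7 CPM in the WT male cell, at 149, 24.3, 18.6 and 7.84 CPM in Mut female cells 1 to 4, and at 75.2, 31.5, 10.7 and 37.8 CPM in Mut male cells 1 to 4. Kept cells had a median of 513 CPM (2.78 to 1705), and 52 of the 62 were above the highest failed cell. All 9 failed cells were thus below the kept median, as for 288 of 9291 genes (3.1%) of mean 10 CPM or more. In the fit on summed counts described below, Gad1 differed by a log2 ratio of -2.97 (SE 1.94, edgeR adjusted p = 0.425), which did not pass the test.

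Gad2, the second GABA-making enzyme, had medians of 12.2 CPM in failed and 166 CPM in kept cells. It was high in 2 failed cells, the WT male cell (833 CPM) and Mut female cell 3 (241 CPM). Slc32a1, which loads GABA into vesicles, reached 10 CPM in 0 of 9 failed and 23 of 62 kept cells. Together the 6 genes of GABA synthesis and transport summed to 41.7 to 2070 CPM in failed cells (median 978) and to a median of 2092 CPM in kept cells, and 9 of 9 failed cells were below it.

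Lhx6 varied widely among the failed cells. It stood at 294 CPM in the WT male cell, at 37.1, 10.4, 6.53 and 5.92 CPM in Mut female cells 1 to 4, and at 5978, 32.5, 317 and 932 CPM in Mut male cells 1 to 4. Mut male cell 1 was above every kept cell (kept median 337, highest 1628 CPM). Mut female cells 3 and 4 were below 10 CPM, as were 5 of 62 kept cells. Dlx1, a homeobox gene of interneuron development, was at 10 CPM in 3 of 9 failed and 43 of 62 kept cells, with medians of 6.42 and 123 CPM.

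Among the peptide genes, Npy was carried by 7 of 9 failed and 54 of 62 kept cells, and Sst by 3 of 9 and 21 of 62. Mut male cell 2 held 1524 CPM of Sst and 2508 CPM of Npy, and Mut female cell 3 held 2340 CPM of Npy and 4822 CPM of Tac1, the tachykinin gene. Strong peptide transcripts were thus present in single failed cells, in libraries of 983160 and 2102311 counts. Gphn itself was carried by 5 of 9 failed and 35 of 62 kept cells, with medians of 11.5 and 31.9 CPM. Mut male cell 2 held 2351 CPM of Gphn, above the highest kept cell (768 CPM), and the other 8 failed cells held 1.52 to 98.8 CPM. Counts per gene cannot show the exchanged serines, so the genotype labels were not checked by this gene.

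**Figure D4:**
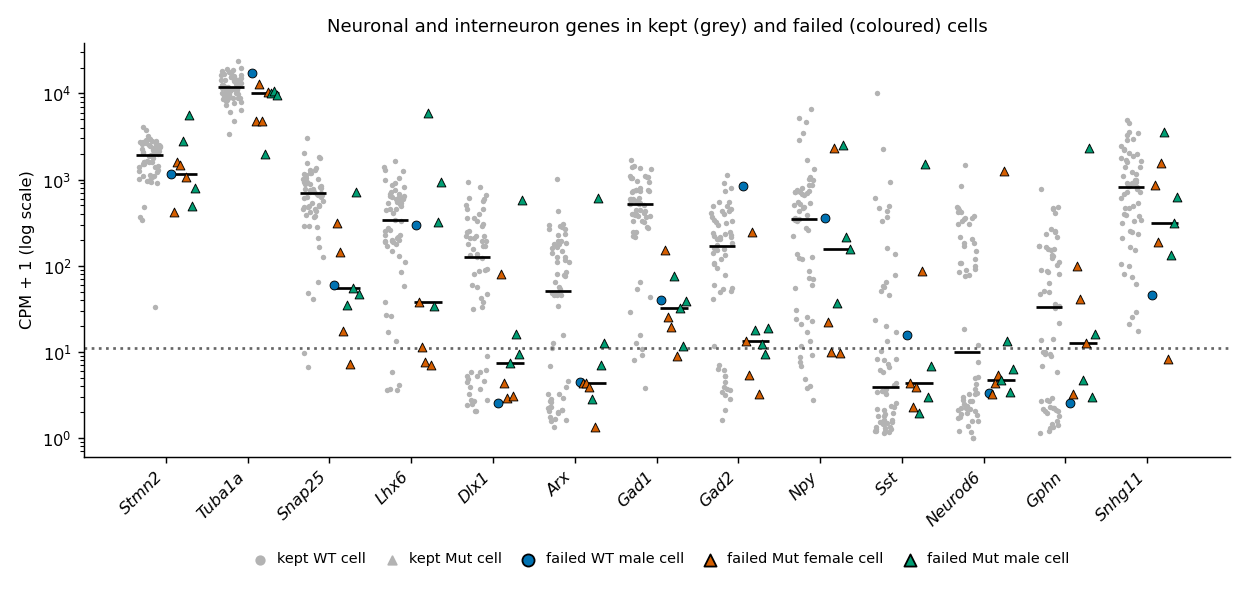
CPM + 1 (y axis, log scale) of 13 neuronal and interneuron genes in each kept cell (grey) and each failed cell (coloured), with black lines at the medians and a dotted line at 10 CPM. Gad1 is below the kept median in all 9 failed cells, while Stmn2 and Tuba1a overlap with the kept cells.

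Mut female cell 4 lacked the defining interneuron genes at 10 CPM. Lhx6 (5.92 CPM), Gad1 (7.84 CPM) and Gad2 (2.24 CPM) were all below 10 CPM there. It held 1257 CPM of Neurod6 and 770 CPM of Neurod2, transcription factors of pyramidal neurons, and 6 of 13 pyramidal markers at 10 CPM or more, where kept cells carried 0 to 12 (median 5). The 13 markers summed to 5511 CPM in it, against a kept median of 931 CPM and a kept highest of 7433 CPM, and Mut male cell 3 held 3866 CPM. The Neurod2 level was above every kept cell (highest 427 CPM), and the Neurod6 level was exceeded by 1 kept cell. Of 20 cell death genes none reached 10 CPM in it. Snhg11, a long non-coding RNA of neuronal nuclei, stood at 7.21 CPM, while all 62 kept cells were at 16.4 CPM or more. The part of pyramidal or mitochondrial transcripts in its failure was not tested.

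Markers of other cell types were read as whole lists. Of 13 microglial markers the failed cells carried 0 to 4 and the kept cells 0 to 11. Their summed level was 5.32 to 804 CPM in failed cells and 0.922 to 7816 CPM in kept cells. The medians were 60.5 and 18.5 CPM, and 8 of 9 failed cells were above the kept median. This sum was compared in CPM only, not in counts. C1qb, a defining complement gene, was at 0.760 to 7.12 CPM in failed cells, above the kept median of 1.34 CPM in 7 of 9. In counts, the C1qb median was lower in failed than in kept cells, so its rise was in CPM only. The C1qb partner C1qc stood at 518 and 258 CPM in Mut female cells 1 and 2, C1qa at 136 CPM in Mut female cell 1, and the receptor Trem2 at 795 CPM in Mut female cell 4. The sum of 12 vascular markers was above the kept median in 8 of 9 failed cells, with medians of 210 and 39.7 CPM. It consisted almost wholly of Pecam1, an endothelial adhesion gene, with medians of 209 and 34.7 CPM. The other endothelial genes Cldn5 and Esam had medians of 0.396 and 0 CPM in failed cells, although Cldn5 reached 470 CPM in Mut female cell 3. Across the kept cells Pecam1 had a Spearman correlation of 0.795 with Gm19220 and of -0.762 with total counts. Its median count was 445.1 in failed and 213.3 in kept cells.

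Erythroid genes summed to 8.64 to 17183 CPM in failed cells (median 1603) and to 2.75 to 26898 CPM in kept cells (median 383), above the kept median in 7 of 9 failed cells. Hba-a2, an alpha haemoglobin, was carried by 8 of 9 failed and 53 of 62 kept cells. Mut female cell 2 held 6660 CPM of it. The 11 astrocyte markers summed to 31.6 to 2406 CPM in failed cells (median 353) and to 4.54 to 8253 CPM in kept cells (median 246), above the kept median in 6 of 9 failed cells. In CPM, Slc1a3, a glial glutamate transporter, was above the kept median in 8 of 9 and Sox9, a glial transcription factor, in 7 of 9. Their median counts were not higher, at 16.7 in failed and 18.6 in kept cells for Slc1a3 and 5.0 and 7.5 for Sox9. A smaller share of failed than of kept cells carried 8 of the 11 astrocyte markers, near the 76.6% of all genes. Fabp7, a marker of astrocytes and radial glia, was carried by 8 of 9 failed and 45 of 62 kept cells, with medians of 34.6 and 164 CPM. Oligodendrocyte markers were near absent, with 0 to 3 of 10 carried by a failed cell. The part of any of these cell types in the failure was not tested.

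Summed stress genes were lower in the median failed cell. The 20 heat shock and stress genes summed to a median of 5429 CPM in failed and 10088 CPM in kept cells, and 8 of 9 failed cells were below the kept median. Sums of the voltage-gated channels and of the nuclear respiratory chain genes were also below their kept medians in 8 of 9 failed cells. The sum of cytosolic ribosomal protein genes was below its kept median in 3 of 9. Hspa8, the constitutive cytosolic chaperone, was below the kept median in 9 of 9 failed cells, with medians of 1558 and 3434 CPM. Of genes of mean 10 CPM or more, 3.1% were below their kept medians in all 9. Hsp90ab1 had medians of 2286 and 1802 CPM. The 20 cell death genes summed to a median of 517 CPM against 837 CPM, below the kept median in 9 of 9. The sum of the GABA genes was below its kept median in 9 of 9 as well. A smaller share of failed than of kept cells carried 14 of the 20 death genes, against the 76.6% of all genes given above. Bax, which permeabilizes the mitochondrial outer membrane, stood at 715 CPM in the WT male cell and 537 CPM in Mut male cell 3, above the highest kept cell (534 CPM). Diablo, which releases caspases from inhibition, was at 10 CPM in 0 of 9 failed and 33 of 62 kept cells. Immediate early genes, which rise with activity or dissection, summed to a median of 281 CPM against 1073 CPM. They were high in 2 failed cells, the WT male cell with 5194 CPM and Mut female cell 2 with 5874 CPM.

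Most genes of any kind were carried by a smaller share of failed than of kept cells. Of 16965 genes at 10 CPM or more in at least 1 cell, 12987 (76.6%) had a lower share in failed cells and 3864 (22.8%) a higher one. Lists near that background were the MGE transcription factors (11 of 14 lower), GABA genes (5 of 6), peptide and subtype genes (12 of 16), glutamate receptors (10 of 14), immediate early genes (12 of 15), cell death genes (14 of 20) and pyramidal markers (10 of 13). Voltage-gated channels had a lower share in 21 of 25 members. Of 76 nuclear genes of the respiratory chain 54 had a lower share. Atp5c1, a subunit of ATP synthase, was below the kept median in 9 of 9 failed cells, with medians of 37.8 and 636 CPM. Of genes of mean 10 CPM or more, 3.1% were below in all 9.

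Several lists departed from that background, not all of them highly expressed. A lower share in failed cells was found for 13 of 24 pan-neuronal, 6 of 13 microglial, 5 of 12 vascular and 0 of 8 erythroid genes. Of 18 growth cytoskeleton genes 1 had a lower share in failed cells and 15 an equal one. All 9 failed cells carried 17 or 18 of them, and Tuba1a, the main tubulin of growing neurons, had medians of 10111 and 11730 CPM. Of 76 cytosolic ribosomal protein genes 39 had a lower share, and their summed median was 28130 CPM in failed and 23068 CPM in kept cells. Of 20 housekeeping genes 7 had a lower share. Reads of near-identical copies, as in the tubulin, haemoglobin and ribosomal protein families, may be split between them by the authors' quantification, which leaves their single values uncertain.

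The genes most reduced in share were broadly expressed ones of moderate level. Gabarap, an autophagy protein that also binds GABA-A receptors, was at 10 CPM in 2 of 9 failed and 52 of 62 kept cells. Its medians were 5.50 and 184 CPM, or 12 and 1156.5 counts. The others were Ssbp4, Tmem258 (a subunit of the oligosaccharyltransferase complex), Srsf10 (a splicing factor), Mien1, Yrdc (a tRNA-modifying enzyme), Txn2 (mitochondrial thioredoxin), Prepl (a peptidase-like protein), Tmem35a (a chaperone of nicotinic receptors) and Soga3. These 10 genes were at 10 CPM in 0 to 2 failed cells and in 39 to 52 kept cells. Their median counts were 3 to 12 in failed cells and 358.5 to 1156.5 in kept cells. In 9 of 9 failed cells (8 of 9 for Yrdc) at least 1 count was assigned to each, so they were reduced to a few counts and not to 0.

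The genes most raised in share had few counts in the median cell of both groups. They were Rab7b (an endosomal GTPase), Pax8 (a transcription factor of thyroid and kidney), Ceacam3, Tmprss13 (a membrane protease), Sord (sorbitol dehydrogenase), Tpm3-rs7 and the olfactory receptors Olfr554, Olfr1440, Olfr729 and Olfr1062. Another 3 genes with Gm names ranked among them, Gm2628, Gm6169 and Gm12792, and were passed over. The 10 genes were at 10 CPM in 7 or 8 failed cells and in 1 to 9 kept cells. Their median counts were 19.1 to 51.7 in failed and 11 to 26.1 in kept cells. Sord was an exception in single cells, with 2408 counts in Mut male cell 3 and up to 1973 in a kept cell. Their median CPM were 12.3 to 32.4 in failed and 1.78 to 4.42 in kept cells. Across the 62 kept cells these genes, too, were higher where Gm19220 was higher, with Spearman correlations of 0.574 to 0.839. They were also higher where depth was lower, with correlations with total counts of -0.805 to -0.533. Their relation to Gm19220 at equal depth was not tested. The 10 genes reduced in share had correlations of -0.204 to 0.176 with Gm19220 and of -0.097 to 0.209 with total counts.

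**Figure D5:**
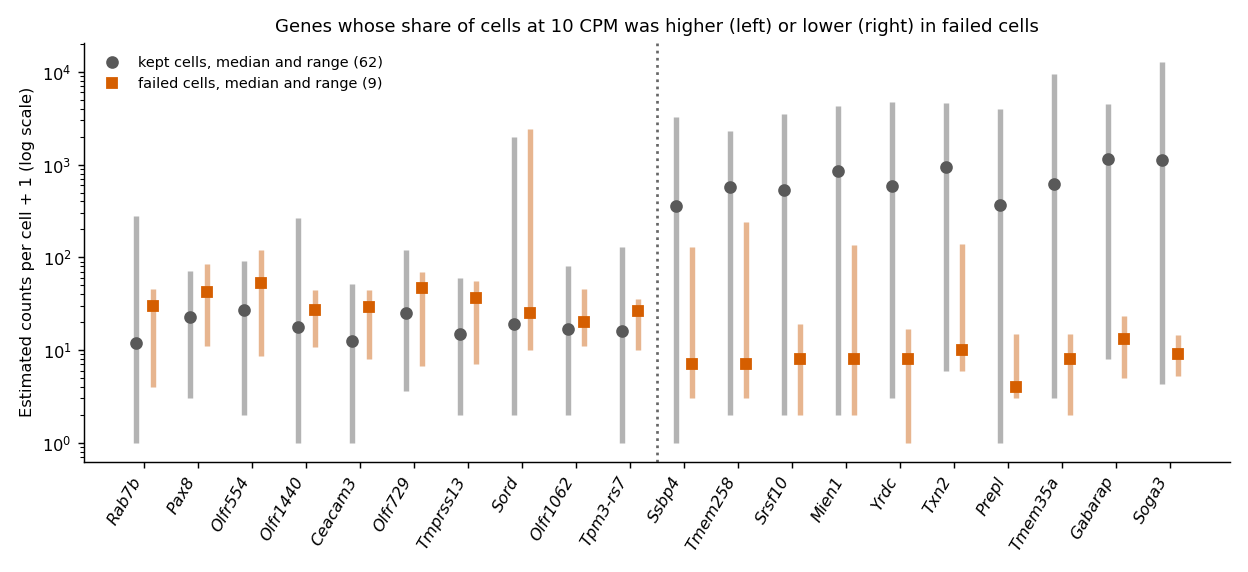
Estimated counts per cell + 1 (y axis, log scale) of the 10 genes most raised in share of cells at 10 CPM in failed cells (left of the dotted line) and the 10 most reduced (right), with the median (symbol) and range (bar) over 62 kept and 9 failed cells. Medians of the left genes are 19.1 to 51.7 in failed and 11 to 26.1 in kept cells, and those of the right genes 3 to 12 and 358.5 to 1156.5.

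The likeness of whole profiles to kept cells was lower in 7 of 9 failed cells than in the median kept cell. The Spearman correlation across genes of a cell with the median kept cell of its genotype and sex was 0.734 to 0.833 in failed cells (median 0.781) and 0.720 to 0.838 in kept cells (median 0.802). The WT male cell, at 0.734, was below all WT male kept cells (0.769 to 0.830). In Mut females the medians were 0.739 and 0.794, and in Mut males 0.804 and 0.809. Restricted to genes at 10 CPM in 20% of kept cells, with all cells thinned to 500000 counts, the medians were 0.508 and 0.505. Genes are not independent replicates, and these values are a description.

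A test across genes was made on counts summed over the cells of each genotype and sex with failed cells, 3 failed against 3 kept sums, with the edgeR quasi-likelihood fit and the group as a term. At a Benjamini-Hochberg adjusted p under 0.05, 1 of 14432 genes (0.00693%) rose in failed sums and 0 (0%) fell. At an unadjusted p under 0.05 the counts were 166 and 2349. The gene was Hspg2, which codes for the basement membrane proteoglycan perlecan (adjusted p = 0.00636). It rested on 2 cells, the WT male cell with 39.0 counts and Mut male cell 4 with 109 counts. The other failed cells held 0 to 4.0 counts, and 3 of the 62 kept cells held any, up to 82.0 counts in a WT female cell, a group without a failed cell that the fit leaves out. Leaving out Mut male cell 4 ended the call (lowest adjusted p 0.171).

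The fit depended on its scaling and its tool. DESeq2 with the same terms called 777 genes higher and 303 lower, and Hspg2 was among the former (DESeq2 adjusted p = 1.06e-12). The median log2 ratio of all genes was -1.75 in the edgeR fit, -0.45 with median-of-ratios factors and -2.95 with library totals, so directions are relative to these shifts. Gm19220 had a log2 ratio of 3.11 (SE 0.77) and Lars2 of 2.93 (SE 0.80), neither past the edgeR test (adjusted p = 0.229 for both). Both passed with DESeq2 (DESeq2 adjusted p = 0.00324 for Gm19220 and 0.0123 for Lars2). With library totals, and in Mut sums alone, both passed it. Gphn had a log2 ratio of -0.42 (SE 2.51, adjusted p = 0.945) and Lhx6 of 0.54 (SE 2.27, adjusted p = 0.923). None of the genes in the lists described above passed the edgeR test. Their median log2 ratios were 0.34 for pan-neuronal genes, -1.70 for MGE transcription factors, -2.12 for GABA genes and 0.99 for growth cytoskeleton genes, against -1.75 for all genes tested.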

How the data were processed

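The authors quantified reads with kallisto on GRCm38, per the submitters' processing notes (version not given in the sources used here). The deposited tables hold estimated counts per gene symbol for 35825 genes before and after a quality filter, per the labels. How counts were combined per gene is not given in the sources used here. A further 52 columns before and 44 after the filter match no labelled cell and were not used. Estimated counts were divided by the cell's total to give CPM, and rounded for thinning and, after summing, for the fits. No length scaling was made, so ratios between genes are ratios of counts, not of transcript levels. Amplified reads carry no molecular identifiers here, so estimated counts are of reads and not of molecules. The binomial intervals concern numbers of cells and cover counting error only.

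The 9 failed cells hold 899625 to 6253603 counts and the kept cells 2946456 to 12070780. Sums were fitted with edgeR 4.0.16 (glmQLFit and glmQLFTest, filterByExpr with minimum count 10, TMM) and DESeq2 1.42.0. The p-values rest on 3 sums a side, 1 of them a single cell. Those of edgeR use the spread left after the term for genotype and sex. This spread was pooled over genes, so they do not measure the spread of a gene's own sums. Symbols were matched to GENCODE M21 (35408 of 35825), and runs of C or G were counted in its transcripts. Alternatives changed the cells, minima, scaling, filter and depth. Named genes were Gphn, Gm19220 and Lars2, up to 4 members of each list by mean CPM, the 10 genes per direction of largest difference in share of cells at 10 CPM, and genes past the edgeR test. Some genes chosen this way are not reported here. Other genes given with values (such as Snap25, Slc32a1, Neurod2, Neu1, Tmem170, Zrsr1 and Grip2) were chosen after their values were seen. The members, the 23 lists and the rules were chosen with earlier results of these data known.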

Additional observations from a re-analysis of the deposited data

Results flagged for a closer look

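In 32 groups of 4 to 9 cells and measures, 5 values lay farther from their neighbours than a Dixon test at 95% allows, and chance flags about 1 in 20 groups. The depth of Mut female cell 4, 6253603 counts, stood apart from the other failed cells, of which the next held 2633230. Its mitochondrial share of 16.4% stood apart both among the 4 failed Mut female cells and among all 9 failed cells, where the next value was 1.91%. Its likeness to kept cells, 0.791, stood above the other failed Mut female cells, of which the next reached 0.741. The Gm19220 share of Mut female cell 1, 47.7%, stood apart from all failed cells, of which the next held 14.1%.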

How the results depend on the processing

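Of 119 alternative values for the measures per cell, 106 kept their direction and moved by less than 1 SD of the kept cells. The rest, given as failed minus kept medians, are these. Detected genes went from -894.5 to -2105.5 at 10 counts, 1322.5 thinned to 1000000 counts and 1018.0 thinned to 500000. The mitochondrial share went from -0.156 to 1.16 percentage points with means, which Mut female cell 4 raises, and to 0.121 against the 9 kept cells of lowest depth. Against those cells the Gm19220 difference went from 8.23 to 2.17 points. Pan-neuronal genes went from -2.0 to 1.0 at 1 CPM and -5.0 at 50 CPM, and MGE and GABA genes from -4.0 to 2.0 at 1 CPM. The top 100 genes' 15.9 points became 11.05 for 10 genes and 25.3 for 500. Likeness went from -0.0203 to 0.0346 over expressed genes and 0.0032 after thinning. Comparisons with the cells of lowest depth, equal scaling and thinning to 500000 were chosen after seeing the data.

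Genes called higher by edgeR numbered 1, but 777 with DESeq2 (303 lower), 2 with library totals or cells scaled to the same total (Gm19220 and Lars2), 3 in Mut alone (these and Vegfd), and 0 with no stratum term, without the Mut female or the Mut male stratum, or with contaminated cells added. Leaving out each failed cell gave 0 to 3 higher and 0 lower. Why these counts differ was not tested. With the WT male stratum left out, the fit is that of Mut alone. No paired analysis was possible because the labels give single cells no replicate number, and beyond that the stratum term already matches failed with kept sums of the same genotype and sex. Low depth limits failed cells: 10 CPM is 9.0 counts in the shallowest.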
